A study of Homo sapiens with 6 samples.

Results

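The regions described are the first-intron peaks of protein-coding genes in a DDX5 RNA immunoprecipitation (RIP-seq) experiment on RH30 cells. In each of the 3 DDX5_IP peak lists 1 summit was kept per interval, the one with the highest −log10 q. A summit was a member when it lay in intron 1 of an Ensembl-canonical protein-coding transcript of GENCODE v44 and in no annotated exon of any gene. There were 2958 members among 93198 peaks on the main chromosomes. By list, these were 385 of 23715 in replicate 1, 1571 of 23651 in replicate 2 and 1002 of 45832 in replicate 3. A peak here is an interval that the authors' peak caller, MACS2, marked as enriched in reads. Its fold enrichment is the authors' own ratio over the caller's background, and the control used for it is not given in the sources used here.

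The experiment comprised 6 samples of nuclear RNA from RH30, an established line of alveolar rhabdomyosarcoma, a childhood muscle-lineage tumour, positive for the PAX3-FOXO1 fusion. In 3 DDX5_IP samples, RNA was recovered from nuclear extract with an antibody against DDX5. The 3 INPUT samples had no antibody step, and their files were not analysed here, so every value below comes from the DDX5_IP lists. The series calls the samples biological replicates, all of the same cell line, so their spread covers 1 line only. The libraries were unstranded, so reads from a gene and from a gene on the opposite strand cannot be told apart. Skeletal muscle markers had a peak at any position for 7 of 8 genes, 6 of them in every list, and MYH3 had none. The 4 fusion partners and fusion targets checked had a peak in every list. No leukocyte or epithelial marker had a peak (0 of 4 each), while 1 of 3 endothelial markers did, in replicates 1 and 3, and VWF and CDH5 had none. A peak list gives no read counts, so the depth behind a peak is unknown.

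DDX5 is a DEAD-box RNA helicase that remodels RNA structure and takes part in splicing, microRNA processing and transcription. Intron 1 is the intron nearest the transcription start site. It is removed from the nascent transcript by the spliceosome, is often long, and in many genes holds enhancers and other regulatory sequence. Nuclear RNA holds unspliced transcripts, so intronic reads can appear in a nuclear immunoprecipitate.

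The sequences of 7 regions show the range of first-intron RNA under the summits. They are 101-base windows of GRCh38 centred on a summit of a region found in every list, written 5′ to 3′ on the gene's strand. Capitals mark CG dinucleotides. THBS1, SGCA, ARRB1 and DYNLT2B are shown because their regions were among the 5 closest to a start site. CSPG4 is shown for the highest mean fold enrichment, and TTC3 and BCAN for windows low in G and C.
THBS1: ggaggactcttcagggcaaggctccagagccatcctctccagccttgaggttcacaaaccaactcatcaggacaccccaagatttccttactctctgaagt
SGCA: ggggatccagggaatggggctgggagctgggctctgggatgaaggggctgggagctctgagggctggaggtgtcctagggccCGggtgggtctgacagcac
ARRB1: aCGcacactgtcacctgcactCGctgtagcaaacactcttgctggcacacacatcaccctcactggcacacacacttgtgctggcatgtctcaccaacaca
DYNLT2B: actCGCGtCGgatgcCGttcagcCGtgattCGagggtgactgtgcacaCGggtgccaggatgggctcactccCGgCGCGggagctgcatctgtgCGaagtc
CSPG4: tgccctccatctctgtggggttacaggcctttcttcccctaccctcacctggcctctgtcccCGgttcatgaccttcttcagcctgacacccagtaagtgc
TTC3: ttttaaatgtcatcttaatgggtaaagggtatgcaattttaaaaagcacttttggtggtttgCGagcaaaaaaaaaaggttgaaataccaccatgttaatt
BCAN: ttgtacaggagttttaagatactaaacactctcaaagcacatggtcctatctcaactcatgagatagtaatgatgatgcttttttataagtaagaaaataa
The windows lie at chr15:39581369-39581469 (THBS1, plus strand), chr17:50166232-50166332 (SGCA, plus), chr11:75350971-75351071 (ARRB1, minus) and chr3:196317615-196317715 (DYNLT2B, minus). The other 3 lie at chr15:75706469-75706569 (CSPG4, minus), chr21:37077257-37077357 (TTC3, plus) and chr1:156645699-156645799 (BCAN, plus). The GC content was 52.5% at THBS1, 68.3% at SGCA, 54.5% at ARRB1 and 65.3% at DYNLT2B. It was 58.4% at CSPG4 and 30.7% at both TTC3 and BCAN. DYNLT2B held 11 CG dinucleotides in its window, and THBS1 and BCAN held none. SGCA stood apart in holding 12 runs of at least 3 G, the most among the 7.

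First introns held a small part of all peaks. The share was 1.62% in replicate 1, 6.64% in replicate 2 and 2.19% in replicate 3, with a mean of 3.48% ± 2.75 (SD, n = 3). Without replicate 2 the mean share was 1.90%. Later introns held 8.05%, 20.95% and 11.7% of the same lists, and exons 84.3%, 61.9% and 80.6%. Replicate 2 stood apart in every one of these shares: it had the most intronic and the fewest exonic peaks. Of the peaks in either intron class, first introns took 16.8% in replicate 1, 24.1% in replicate 2 and 15.8% in replicate 3.

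Per megabase of sequence, first introns had fewer peaks than later introns in each list. The density in first introns was 1.49, 6.08 and 3.88 peaks per Mb in replicates 1 to 3 over 258.3 Mb of sequence. In later introns it was 2.46, 6.38 and 6.90 peaks per Mb over 776.3 Mb. The log2 ratio of first over later introns was −0.72, −0.07 and −0.83, with a mean of −0.54 ± 0.41 (SD, n = 3). Flipping the signs of the lists in an exact two-sided permutation test gave p = 0.25, the smallest p that 3 lists allow. No comparison below can therefore pass a threshold of 0.05. Without replicate 2 the mean was −0.78. The direction turned when summits within 200 bp of an annotated exon, and that sequence, were left out: the log2 ratio was then 0.34, 0.11 and −0.01, with a mean of 0.14. In the 4243 genes whose canonical transcript spans an exonic peak in every list, a subset chosen after the data were seen, first introns had 3.71, 12.7 and 8.12 peaks per Mb, against 6.63, 13.6 and 16.4 in later introns.

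Within first introns, peaks lay close to the start site more often than the sequence did. The first 1 kb after the start site held 75 peaks in replicate 1, 105 in replicate 2 and 177 in replicate 3. That is 19.5%, 6.68% and 17.7% of the members, against 3.91% of first-intron sequence. The log2 ratio was 2.32, 0.77 and 2.18, a mean of 1.76 ± 0.85 (SD, n = 3; exact sign-flip permutation p = 0.25, the same direction in 3 of 3 lists). The median distance from the start site was 7781 bp in replicate 1, 10999 bp in replicate 2 and 4694.5 bp in replicate 3. The farthest summit lay 479662 bp from its start site, in replicate 2.

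**Figure D1:**
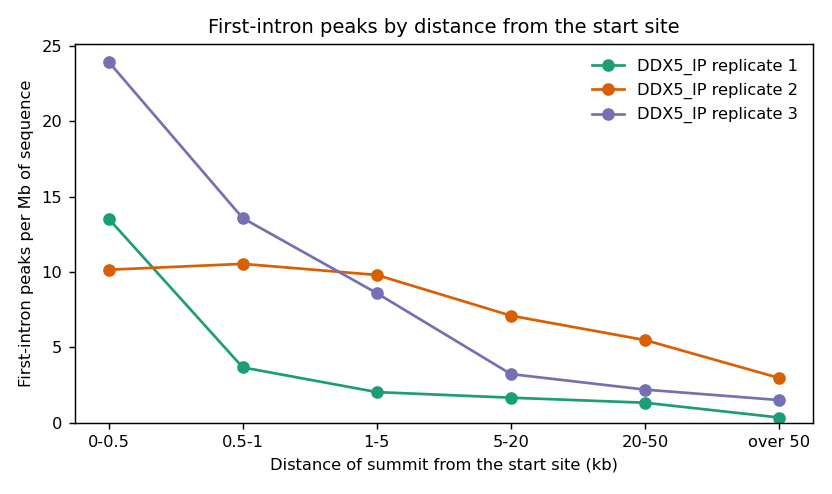
First-intron peaks per megabase of first-intron sequence (vertical axis) by the distance of the summit from the start site in kb (horizontal axis), 1 line for each DDX5_IP replicate. Replicates 1 and 3 had 13.5 and 23.96 peaks per Mb in the first 0.5 kb and 0.35 and 1.51 beyond 50 kb, while replicate 2 stayed between 9.81 and 10.5 over the first 5 kb.

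The decline with distance had a different form in replicate 2. Its density was 10.2 peaks per Mb in the first 500 bp, 10.5 from 500 to 1000 bp and 9.81 from 1 to 5 kb. Replicate 1 had 13.5, 3.68 and 2.04 in the same bins, and replicate 3 had 23.96, 13.6 and 8.60. Beyond 50 kb the densities were 0.35, 2.97 and 1.51 peaks per Mb in replicates 1 to 3, the lowest bin of every list.

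Part of the members near the start site lay at the edge of an exon. Among those in intron 1 of a single gene and within 1 kb of the start site, 53 of 71 in replicate 1, 34 of 102 in replicate 2 and 96 of 174 in replicate 3 had a summit within 50 bp of an annotated exon. Over all members, the interval itself touched an exon for 22.6%, 6.24% and 16.3%. With summits within 200 bp of an exon left out, 15 of 284 members in replicate 1, 59 of 1446 in replicate 2 and 62 of 806 in replicate 3 remained within 1 kb of the start site. That is 5.28%, 4.08% and 7.69%, against 2.41% of the remaining sequence, a mean log2 ratio of 1.19 ± 0.46 (SD, n = 3).

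High density at the 5′ end was also seen in later introns. In the 5′ 1 kb of first introns there were 6.67, 11.4 and 17.3 peaks per Mb in replicates 1 to 3, against 8.53, 10.1 and 20.4 in the 5′ 1 kb of later introns. Introns of up to 1 kb fell wholly in this 5′ part, and the 3′ part was the last 1 kb outside it. The 5′ and 3′ parts held 13.5 and 11.4 Mb in first introns, and 111.6 and 75.1 Mb in later introns. In the middle, more than 1 kb from both ends, first introns had 1.114, 5.77 and 2.93 and later introns 0.935, 5.47 and 3.18. The step from middle to 5′ end differed between first and later introns by a log2 value of −0.61, 0.10 and −0.12 (mean −0.21 ± 0.36, SD, n = 3; exact sign-flip permutation p = 0.5). A high 5′ end was therefore not shown to be particular to first introns.

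The 3′ ends differed more. The last 1 kb of first introns, outside the 5′ 1 kb, had 3.08, 6.16 and 7.48 peaks per Mb. The same part of later introns had 5.42, 8.07 and 16.1. Short introns contribute little or nothing to this part, and its share of the sequence differed between the classes. Relative to the middle, the 3′ end of first introns was lower than that of later introns by a log2 difference of −1.07, −0.47 and −0.98 (mean −0.84 ± 0.33, SD, n = 3; exact sign-flip permutation p = 0.25, 3 of 3 lists). Along the length of intron 1, from 0 at the 5′ end to 1 at the 3′ end, the median member lay at 0.394, 0.383 and 0.348 in replicates 1 to 3 (exact sign-flip permutation p = 0.25 against 0.5). The same median was not computed for later introns. Their 5′ part was also denser than their 3′ part in each list, so the position is not shown to be particular to first introns.

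**Figure D2:**
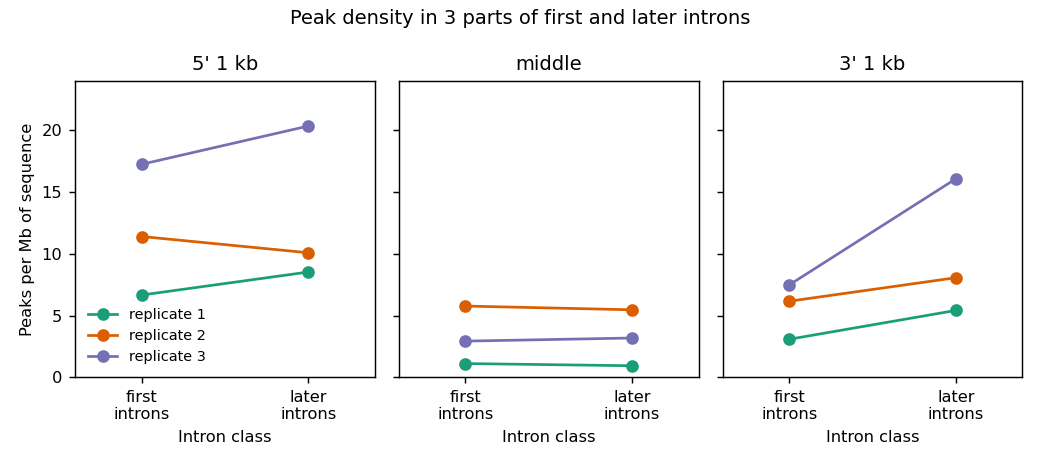
Peaks per megabase (vertical axis) in the 5′ 1 kb, the middle and the 3′ 1 kb of first introns (left) and later introns (right), with a line joining the 2 values of each DDX5_IP replicate. The 3′ 1 kb leaves out sequence already in the 5′ 1 kb. In the middle the classes lie close together (2.93 and 3.18 peaks per Mb in replicate 3), and at the 3′ end first introns lie lower in every replicate.

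The enrichment of first-intron peaks was modest and close to that of later introns. The median fold enrichment was 3.21, 3.47 and 3.25 in first introns of replicates 1 to 3, against 2.89, 3.40 and 3.07 in later introns. The log2 ratio was 0.15, 0.03 and 0.08 (mean 0.09 ± 0.06, SD, n = 3; exact sign-flip permutation p = 0.25), and without summits within 200 bp of an exon the mean was −0.01. Median width was 165, 185 and 169 bp in first introns, against 165, 182 and 170 bp in later introns. Of the members, 146, 708 and 425 had a q under 1e-05, and 77, 481 and 224 had a fold enrichment of at least 4. Most members, 76.4%, 80.8% and 85.6%, shared their exact pair of fold and p-value with at least 9 other peaks of the list.

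Agreement between replicates was limited. A member touched, by at least 1 base, a peak of both other lists for 83 of 385 members in replicate 1 (21.6%), 70 of 1571 in replicate 2 (4.46%) and 55 of 1002 in replicate 3 (5.49%). Over peaks at all positions the shares were 37.7%, 37.1% and 18.4%. In later introns they were 24.2%, 8.46% and 4.13%, so first introns were lower in replicates 1 and 2 and higher in replicate 3 (mean difference −1.77 ± 2.79 percentage points, SD, n = 3; exact sign-flip permutation p = 0.5). With summits within 200 bp of an exon left out, the shares were 16.9%, 3.32% and 5.83% in first introns, against 16.6%, 3.07% and 4.73% in later introns. Members that touched no peak of another list made up 41.0% in replicate 1, 84.6% in replicate 2 and 77.5% in replicate 3.

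The members were spread over many genes. Of all members, 2883 lay in intron 1 of a single gene, and the other 75 lay in intron 1 of several genes and were given no gene. Of 18593 protein-coding genes with an intron 1, 1541 had a member in at least 1 list (8.29%). Only 80 genes (0.43%) had one in every list, 298 had one in 2 lists and 1163 in a single list. Of the genes seen in a single list, 81 were seen in replicate 1, 681 in replicate 2 and 401 in replicate 3. Most genes, 993, had a single peak over all lists, and 92 had at least 5. An exonic peak lay in the span of 1357 of the 1541 genes in at least 1 list (88.1%), against 49.8% of all genes with an intron 1. It lay in the span of 58 of the 80 genes in every list (72.5%), against 23.6% of all. These differences were not tested.

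Genes with a first-intron peak had long first introns. The median length of intron 1 was 28101 bp in the 80 genes seen in every list and 22785 bp in the 1541 genes, against 3139.5 bp in genes with none. The share of genes with a member in any list was 0.74% where intron 1 was up to 1 kb, 4.31% from 1 to 5 kb, 9.32% from 5 to 20 kb, 20.0% from 20 to 50 kb and 31.1% beyond 50 kb. Peaks per Mb of intron 1 ran differently: 4.76, 6.19 and 9.52 in introns up to 1 kb for replicates 1 to 3, and 0.745, 4.50 and 1.80 in introns beyond 50 kb. From 1 to 5 kb they were 3.17, 8.74 and 11.7, so the densest class was up to 1 kb in replicate 1 and from 1 to 5 kb in replicates 2 and 3. Introns beyond 50 kb had the lowest density in every list, and the classes between did not fall in order in replicate 1 (1.74 from 5 to 20 kb and 1.96 from 20 to 50 kb).

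**Figure D3:**
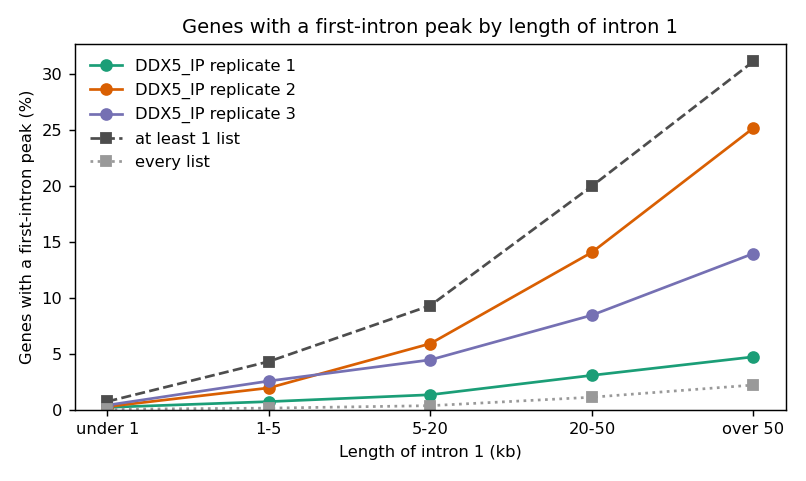
Share of genes with a first-intron peak in percent (vertical axis) by length class of intron 1 in kb (horizontal axis), for each DDX5_IP replicate, for at least 1 list and for every list. In the class over 50 kb the share was 4.73% in replicate 1, 25.2% in replicate 2 and 14.0% in replicate 3, and 2.21% in every list.

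In 49 regions, in 39 genes, every list had a first-intron peak of the same gene that joined the others by overlap. Of these regions, 8 had a mean summit within 1 kb of the start site, 24 within 5 kb and 8 beyond 20 kb, and the median distance was 5067 bp. The summits of the 3 lists lay a median of 93 bp apart from lowest to highest, and in 25 regions they lay within 100 bp. Mean fold enrichment ran from 1.81 to 8.40 with a median of 3.84. It was highest in replicate 1 in 12 regions, in replicate 2 in 23 and in replicate 3 in 14. In 10 regions the fold was at least 4 in every list. Another 41 genes had a member in every list but no region in which the peaks of all 3 lists joined.

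**Figure D4:**
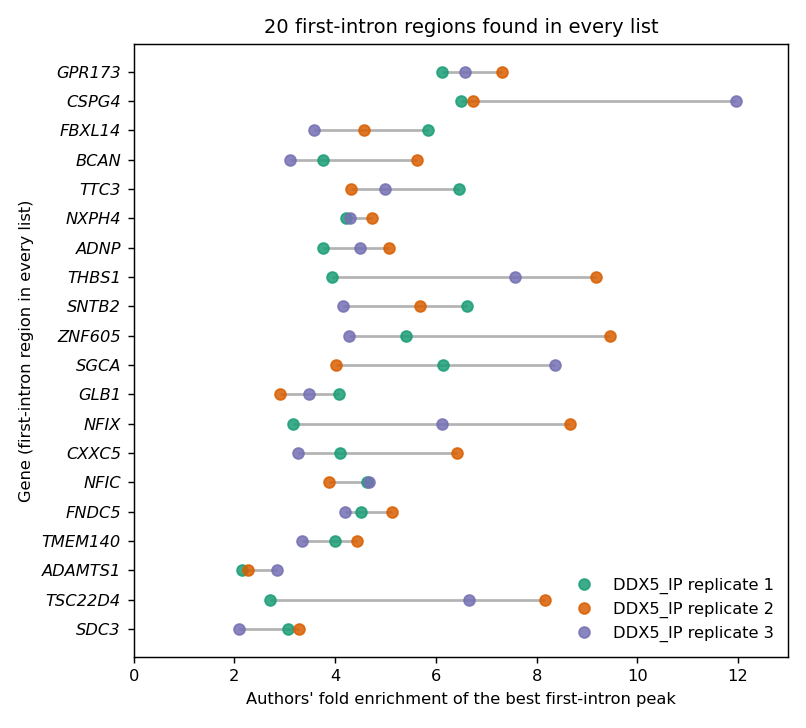
The authors' fold enrichment of the best first-intron peak (horizontal axis) in each DDX5_IP replicate for 20 regions found in every list (vertical axis, 1 row per gene, ordered by mean percentile of −log10 q). CSPG4 reaches 11.96 in replicate 3, and ADAMTS1 stays between 2.14 and 2.84.

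Genes of the cell surface and matrix were among the regions with the highest rank of −log10 q. GPR173, an orphan G protein-coupled receptor, led with a region at chrX:53071857-53072354, at 6.13, 7.32 and 6.57-fold in replicates 1 to 3. Its summits lay 23429, 23424 and 23237 bp from the start site, near the end of an intron of 27040 bp. The values overlapped closely, with no replicate standing apart. CSPG4, a membrane chondroitin sulfate proteoglycan, had a region at chr15:75706438-75707088 with 6.50, 6.73 and 11.96-fold and summits within 21 bp of each other. Replicate 3 was the high one there. BCAN, the proteoglycan brevican, had a region at chr1:156645480-156646411 with 3.75, 5.63 and 3.10-fold. SDC3, the heparan sulfate proteoglycan syndecan-3, had 3.06, 3.29 and 2.09-fold, and ADAMTS1, a secreted metalloprotease, had 2.14, 2.28 and 2.84-fold. Both stayed under 4-fold in every list, and among the 49 regions ADAMTS1 ranked 23 and SDC3 ranked 26. In the ADAMTS1 region the closest summit lay 28 bp from an annotated exon.

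THBS1 encodes thrombospondin-1, a secreted matrix glycoprotein. Its intron 1 of 600 bp held 1 peak per list, at 3.93, 9.17 and 7.57-fold, in the region chr15:39581125-39581606. The summits lay 402, 340 and 328 bp from the start site and 179 bp or more from any exon. Intron 1 begins at position 39581229, so the region also covered part of exon 1. Replicate 1 was the low one. NXPH4, a neurexophilin, had 4.21, 4.74 and 4.29-fold, the narrowest range of the 20 regions (mean 4.42), at chr12:57222869-57223360.

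A pair of genes of the dystrophin complex were also named by the rule. SGCA, alpha-sarcoglycan of the muscle membrane, had 6.14, 4.01 and 8.37-fold in replicates 1 to 3. Its summits lay 588, 546 and 277 bp from the start site, and the interval of replicate 3 was 1825 bp wide (chr17:50164849-50166673). That interval began upstream of the start site, and it also covered exon 1. Intron 1 begins at position 50166078, so most of the interval lay before intron 1. The summits of the lists spread over 311 bp. SNTB2, beta-2-syntrophin, had 6.61, 5.69 and 4.16-fold at chr16:69189644-69191193, where the gene UTP4 overlaps.

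Transcription factor genes were represented at varied distances. NFIX and NFIC encode nuclear factor I proteins. NFIX had 3.17, 8.66 and 6.12-fold in replicates 1 to 3, 28266, 28256 and 28275 bp from the start site (chr19:13023586-13023869). NFIC had 4.63, 3.89 and 4.68-fold about 5 kb from the start site (chr19:3371363-3371824), and one of its summits was 14 bp from an annotated exon. CXXC5, a zinc finger protein that binds unmethylated CpG, had 4.10, 6.41 and 3.25-fold at a mean distance of 22182 bp. ADNP, a homeobox protein, had 3.77, 5.07 and 4.49-fold, and ZNF605, a zinc finger gene, had 5.41, 9.46 and 4.27-fold. ZNF605 overlaps CHFR there, and without strand the 2 genes cannot be told apart. TSC22D4, of the TSC22 leucine zipper family, had 2.71, 8.18 and 6.66-fold in an intron of 486 bp, the shortest intron 1 of the 80 genes.

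Enzymes and other genes completed the 20. TTC3, an E3 ubiquitin ligase, had 6.45, 4.32 and 4.98-fold at chr21:37076725-37078217. FBXL14, an F-box protein of a ubiquitin ligase, had 5.84, 4.57 and 3.59-fold with summits within 19 bp of each other, in a stretch that WNT5B also spans. GLB1, lysosomal beta-galactosidase, had 4.08, 2.91 and 3.48-fold, the lowest of them in replicate 2. FNDC5, the precursor of irisin, had 4.51, 5.13 and 4.20-fold, and TMEM140, a membrane protein gene that CYREN overlaps, had 3.99, 4.42 and 3.35-fold.

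The 5 regions nearest a start site included THBS1 and SGCA. ARRB1, beta-arrestin 1, had 2.73, 3.61 and 4.23-fold at 475, 443 and 640 bp from the start site of an intron of 61548 bp. DYNLT2B, a dynein light chain gene, had 2.43, 3.99 and 4.90-fold at 561, 620 and 575 bp, and TM4SF19-DYNLT2B also spans the position. The gene with the identifier ENSG00000285471 had 2.09, 2.13 and 2.21-fold at 301, 328 and 381 bp, where ENSG00000284837 overlaps. In each of ARRB1, DYNLT2B and ENSG00000285471 replicate 1 had the lowest fold and replicate 3 the highest.

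Some first introns carried many peaks. The 5 genes with the most, and at least 1 in every list, were GPR173, WNK1, SYNDIG1, TTC3 and COL5A1. GPR173 had 22, 21 and 7 peaks in replicates 1 to 3. WNK1, a kinase that controls ion transport, had 14, 6 and 3 in an intron of 59317 bp. SYNDIG1, a synaptic membrane protein gene, had 4, 10 and 7 in 73266 bp. TTC3 had 9, 6 and 5 in 13773 bp, and COL5A1, a fibrillar collagen chain, had 11, 3 and 3 in 48615 bp. The list with the most peaks was replicate 1 in GPR173, WNK1, TTC3 and COL5A1, although it had the fewest members in all. In GPR173, TTC3 and ZNF605 the lists joined in 3 regions each, and in BCAN, COL5A1, GLB1 and SYNDIG1 in 2 each.

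**Figure D5:**
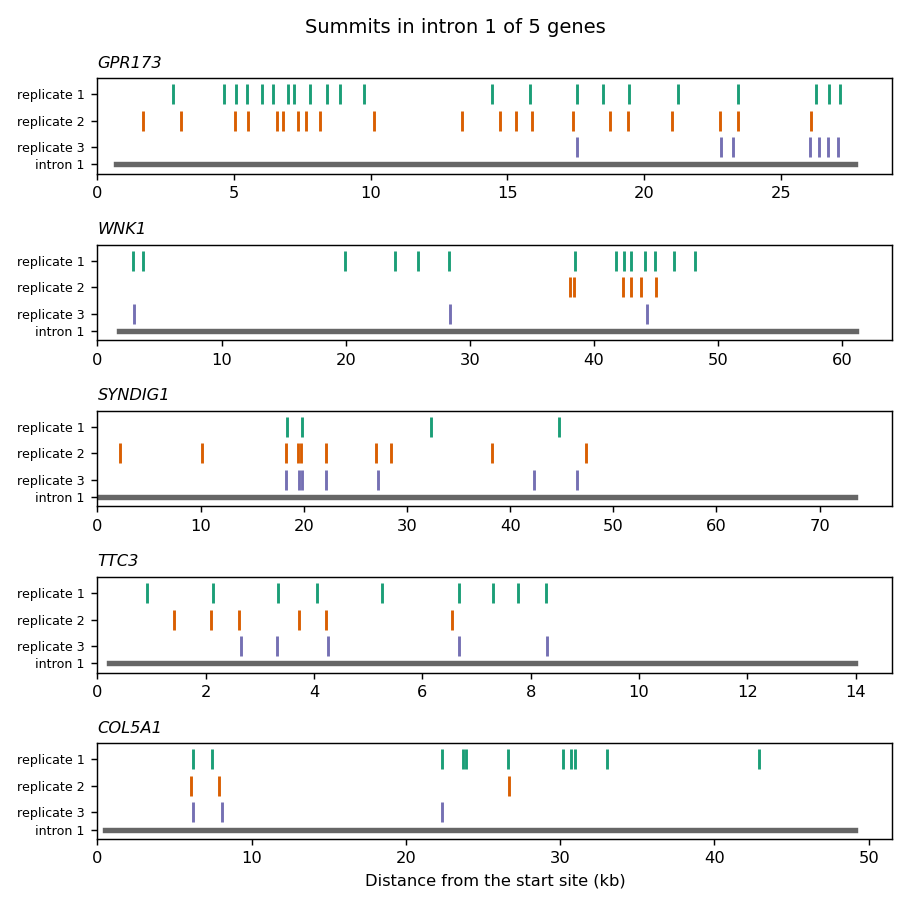
Summits of first-intron peaks (ticks) by distance from the start site in kb (horizontal axis) in 5 genes, 1 row for each DDX5_IP replicate, with intron 1 as a grey bar. In GPR173 replicates 1 and 2 spread 22 and 21 peaks over the intron while replicate 3 has 7, and in TTC3 no summit of any list lies beyond 10 kb in an intron of 13773 bp.

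The gene groups examined were read against the 8.29% of all genes with a member in any list and the 0.43% with one in every list. They also differed in the length of intron 1, and its part in these counts was not tested. The highest share was in cytoskeleton, motor and adhesion genes: 20 of 40 genes had a member in any list, none in every list, with a median intron 1 of 34574 bp. Collagens and extracellular matrix genes followed with 12 of 36 and a median of 8104.5 bp. COL5A1 and THBS1 had a member in every list. Rhabdomyosarcoma regulators and PAX3-FOXO1 targets had 9 of 40, with a median intron 1 of 3114.5 bp, and none in every list.

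Signalling and chromatin lists were between these and the background. Notch and Hippo genes had 8 of 36, Wnt pathway genes 7 of 32, lysine methyltransferases and heterochromatin factors 7 of 34, receptor tyrosine kinase and IGF signalling genes 7 of 38, and chromatin remodellers and corepressors 7 of 39. EGFR, a receptor tyrosine kinase, had a member in every list, 2, 2 and 1 in number, yet its best summits lay 105475, 7585 and 39577 bp from the start site. Nuclear receptors and coactivators had 5 of 36. Near or below the background were SR proteins, hnRNPs and core spliceosome with 3 of 40, cell cycle and DNA replication genes with 3 of 36, and Microprocessor and DDX5 partner genes with 2 of 35. The median intron 1 was 2457.5, 1084 and 5303 bp in these last 3 lists.

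Muscle differentiation and sarcomere genes had 5 of 38, and SGCA was the one with a member in every list. TNNI1, slow skeletal troponin I, was named after its values were seen: it had no member in replicate 1, 4 in replicate 2 and 3 in replicate 3. Its summits lay 69, 1095, 2789 and 2980 bp from the start site in replicate 2 and 61, 1101 and 2795 bp in replicate 3. The positions in the lists thus paired closely, although replicate 1 had none.

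The genes of the experiment itself had few members. PAX3, DDX5 and its paralogue DDX17 had none in any list. Their first introns are 1317, 1233 and 4670 bp long. FOXO1 had 1, in replicate 3, at 3.76-fold and 81383 bp from the start site in an intron of 104722 bp.

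The base composition under the summits differed between lists. GC content of the 101-base windows averaged 48.7%, 41.8% and 46.1% in replicates 1 to 3, against 47.0%, 43.1% and 45.6% over the members' own first introns. The difference was 1.64, −1.30 and 0.51 percentage points (mean 0.28 ± 1.48, SD, n = 3; exact sign-flip permutation p = 0.75). Without summits within 200 bp of an exon it was −1.48, −1.70 and −1.47, the same sign in 3 of 3 lists. The value for the intron still included the sequence within 200 bp of exons there, so the 2 sides are not trimmed alike. At later-intron summits the GC content was 44.02%, 40.7% and 40.8%. The GC content of the later introns themselves was not computed, so the classes were not compared relative to their own sequence.

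Short motifs were counted in the same windows and in 119926 windows placed evenly, 500 bases apart, in the first introns of the genes with a member. The splice donor hexamers GGTAAG and GGTGAG, on the gene's strand, occurred in 39.4%, 18.6% and 35.6% of member windows within 1 kb of the start site, against 6.04% of even windows there. Among windows free of exon sequence the hexamers occurred in 0 of 18 members in replicate 1, 2.94% of 68 in replicate 2 and 3.85% of 78 in replicate 3, against 3.49% of 1749 even windows. A window that crosses the end of exon 1 holds the splice donor by construction. The even windows began at a fixed offset inside the intron, so on plus-strand genes none could reach the donor that opens intron 1. The shares near the start site and in windows that reach an exon are therefore not a like comparison, and no conclusion is drawn from them. Among windows that reach an exon, 52.8%, 50.0% and 61.5% of 53, 34 and 96 members held a hexamer, against 35.1% of 154 even windows (exact sign-flip permutation p = 0.25). From 1 to 5 kb the shares were 6.41%, 5.39% and 5.21%, against 4.36% of even windows (exact sign-flip permutation p = 0.25, 3 of 3 lists). The same hexamers on the opposite strand were also more common there: 7.69%, 6.47% and 5.52%, against 3.83% (exact sign-flip permutation p = 0.25, 3 of 3 lists). The difference was thus not particular to the gene's strand. Beyond 20 kb the shares on the gene's strand were 4.67%, 4.40% and 2.45%, against 3.86%.

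Runs of 6 A on either strand, AAAAAA, were less common at members than in even windows: 9.28%, 16.9% and 15.0%, against 21.8% (exact sign-flip permutation p = 0.25). The word GGGATTACA, part of the Alu repeat consensus, searched on both strands, occurred in 1.59%, 1.76% and 1.74%, against 3.73% (p = 0.25, exact sign-flip permutation). It was in 5.56% of the 162 peaks of the 49 regions found in every list. The peaks of a region overlap across lists, so these 162 are not independent observations. In windows free of exon sequence within 1 kb of the start site the word was in 5.56% of 18, 2.94% of 68 and 1.28% of 78 members. Of 1749 even windows there, 0.80% held it. The direction was the opposite one in 3 of 3 lists, but these shares rest on very few windows. The repeat CACACACA, on either strand, occurred in 5.04%, 2.03% and 1.84%, against 1.66%, and in 8.64% of those 162 peaks. The ARRB1 window printed above holds it. By distance, the repeat was more common at members in 1 of 3 lists within 1 kb and from 1 to 5 kb. From 5 to 20 kb it was so in 3 of 3 lists, and beyond 20 kb in 2 of 3. The even windows came from all genes with a member, so they are not a like background for the 162 peaks. These counts describe letters in a window and not binding.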

How the data were processed

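The authors deposited 1 MACS2 peak list per DDX5_IP sample; per the submitters' processing notes reads were handled with STAR 2.6.1d, cutadapt 1.11, SAMtools 1.10, bcl2fastq 2.20 and FastQC 0.11.8, peaks with MACS2 2.2.7.1, and the build was GRCh38. Each deposited row gives the authors' fold enrichment (a ratio), their −log10 p-value and −log10 q-value and an integer score. Options, control and depth are not given in the sources used here. The largest q in the lists was 0.0499.

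Intervals with several summits were reduced to the row with the highest −log10 q. Summits were placed on GENCODE v44 with Python 3.11.15, NumPy 2.4.6, pandas 2.3.3 and pysam 0.24.0. Comparisons across the 3 lists used exact two-sided sign-flip permutation tests, and the procedure was tested on simulated data. The lists were not pooled. The members and gene lists were chosen with earlier results of these data known.

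Named genes were the 20 regions in every list with the highest mean percentile of −log10 q (1 per gene), the 5 genes with most members, the 5 regions nearest a start site, up to 3 genes per gene list with a member in every list, and PAX3, FOXO1, DDX5 and DDX17. Alternatives were stricter q and fold, lists of equal length, leaving out each replicate, any transcript, no overlapping genes, exon edges, distances, overlap rules and window size. The window sequence of 1 region is not reported here.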

Additional observations from a re-analysis of the deposited data

How the results depend on the processing

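No paired analysis was possible because the DDX5_IP lists are the only files used here, and no INPUT values with the shared replicate numbers stand beside them. Over all alternatives run, closeness to the start site (log2 1.07 to 2.25) and the position along the intron (−0.13 to −0.09) kept their direction, and the share in first introns ran from 1.69% to 6.01%. That share was 3.48% with all lists and 1.90% without replicate 2, with an SD of 2.75 and 0.40 percentage points. Without summits within 200 bp of an exon, 4 results turned: density to 0.14, fold to −0.0143, support to 0.54 and GC to −1.55. Support also turned at a q under 1e-05 (1.12) and at a fold of at least 4 (4.15); GC turned at these settings (−0.054 and −0.59), without peaks whose fold and p are common to 10 or more (−0.085, added after the data were seen) and with 100 bases each side (−0.34). Width turned with intron 1 of any protein-coding transcript (−0.0062). The cause of these changes was not tested.

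Leaving out each replicate in turn gave, lowest to highest, share 1.90% to 4.41%, density −0.78 to −0.40, support −10.1 to 1.67, width −0.00426 to 0.0118, GC −0.40 to 1.07, 97 to 141 regions and 117 to 298 genes; with 2 lists, fewer need to match. Support turned without replicate 3 (1.67), GC without replicate 1 (−0.40) and width without replicate 2 (−0.00426). The 49 regions were 21 at a q under 1e-05, 10 at a fold of at least 4, 8 without such common pairs, 25 with a reciprocal overlap of 50% and 28 with summits within 100 bp. The 80 genes were 25, 11 and 10 under the first 3 of these settings, 48 at equal list lengths and 158 with any transcript. Of 23 named regions, 16 stayed at the stricter q and 8 at the stricter fold. Without summits in a second gene 17 stayed, and without summits within 200 bp of an exon also 17. Only 4 stayed without such common pairs: those of GPR173, FBXL14, BCAN and TTC3. Depth is unknown, so a region found in a single list may have been below detection in the others.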

Other observations

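The members with the highest fold enrichment came from replicate 2 and were chosen after their values were seen. REEP3, which encodes a protein that shapes the endoplasmic reticulum, had 20.5-fold at a summit 33918 bp from its start site. LASP1NB had 15.4-fold at 1235 bp, KCNH1, a voltage-gated potassium channel gene, had 12.98-fold at 10959 bp, and CREB1, a transcription factor that responds to cyclic AMP, had 12.8-fold at 20662 bp. REEP3, LASP1NB and CREB1 had no member in replicate 1 or 3, and KCNH1 had another in replicate 3, at 3.07-fold and 4984 bp.

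The members closest to a start site were also chosen after their values were seen. TIMP1, a tissue inhibitor of metalloproteinases, had a summit 43 bp from the start site in both replicate 2 (3.37-fold) and replicate 3 (4.43-fold), and none in replicate 1. UBE2V1, a ubiquitin-conjugating enzyme variant, had one at 52 bp in replicate 3 (6.66-fold), and RPL4, a ribosomal protein gene, had one at 68 bp in replicate 3 (3.61-fold).

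The 75 members in intron 1 of several genes included those of the gamma protocadherin cluster, whose variable first exons share a long downstream intron. A member of replicate 3 lay in intron 1 of 22 genes of that cluster at 3.25-fold, and one of replicate 2 lay in intron 1 of 20 genes at 3.28-fold.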
